A study of Mus musculus with 18 samples.

Results

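The nuclear lamina and the LINC complex (linker of nucleoskeleton and cytoskeleton) were followed through 9 genes, namely Lmna, Lmnb1, Lmnb2, Lbr, Emd, Sun1, Sun2, Syne1 and Syne2. They were chosen by name, as the rows of the count table whose Ensembl identifiers carry these symbols, and all 9 were found among the 46078 genes of the table. All 9 had enough reads to be among the 13438 protein-coding genes tested.

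The cells were E14 mouse embryonic stem cells (mESCs), an established line, cultured for 24 h in serum with LIF, a cytokine that sustains self-renewal. They grew on StemBond hydrogels, polyacrylamide gels that hold the co-factor AHA (6-acrylamidohexanoic acid), to which extracellular matrix proteins are covalently tethered. Every gel carried fibronectin. Soft gels had a modulus near 0.75 kPa and stiff gels near 160 kPa. The AHA concentration was 16 mM in the low, 48 mM in the mid and 80 mM in the high condition at each stiffness, with 3 RNA-seq libraries in each of the 6 groups. The labels give no change of genotype and no inhibitor for any group. The labels do not say whether libraries of a group came from separate cultures, so p-values measure only the spread between libraries, which may be technical.

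Libraries held between 5850621 and 9290261 counts in genes. In the soft, high AHA group, replicate 1 had 1.37% of its counts in ERCC spike-in RNAs, against 0.607% to 0.725% in the other libraries. The study discarded outliers by this measure, and that library was left out of the tests, which leaves 8 soft and 9 stiff libraries. Where adding it back changed a call between soft and stiff gels, or moved a member's average difference by over 1.5 times, both values are given. The embryonic stem cell markers were high in every kept library, with Pou5f1, which encodes Oct4, between 513 and 598 CPM (TMM-scaled counts at a common library total). RNA came from whole cultures, so fewer cells of a type and less RNA per cell cannot be told apart.

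Lamins are intermediate filament proteins that line the inner nuclear membrane. Lmna gives the A-type lamins A and C by splicing, while Lmnb1 and Lmnb2 give the B-type lamins, which stay farnesylated and are held at the membrane. Lbr (lamin B receptor) and Emd (emerin) are inner nuclear membrane proteins that hold the lamina and chromatin to the envelope. Sun1 and Sun2 cross the inner membrane and bind, in the space between the membranes, the KASH domains of the nesprins encoded by Syne1 and Syne2, which in turn attach to the cytoskeleton. This chain transmits force from cell adhesions to the nucleus, and A-type lamins are generally scarce in pluripotent cells and abundant in stiff tissues.

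Lmna lies on the minus strand of chromosome 3 (GRCm38, 88480147 to 88509956), and its annotated exons cover 5838 bases. A RefSeq promoter window was given for 8 of the 9 genes, 13 windows in all, with more than 1 window for genes with several start sites. The 250 bases upstream of a start were searched on both strands for the SRF CArG box, the TEAD motif GGAATG and the AP-1 motif TGANTCA, whose factors act downstream of actin tension and adhesion signalling in many cells. The first Lmna window is shown because Lmna was the gene that differed with stiffness, and the Lbr window because it held the AP-1 match among the 13 windows. Capitals mark a match.
Lmna, chr3:88503353-88503602, minus strand, GRCm38.p6: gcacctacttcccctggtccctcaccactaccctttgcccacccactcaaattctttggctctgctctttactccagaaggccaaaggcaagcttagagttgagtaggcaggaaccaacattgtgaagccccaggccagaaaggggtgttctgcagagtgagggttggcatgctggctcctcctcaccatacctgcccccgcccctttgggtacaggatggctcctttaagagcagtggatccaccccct
Lbr, chr1:181842402-181842651, minus strand, GRCm38.p6: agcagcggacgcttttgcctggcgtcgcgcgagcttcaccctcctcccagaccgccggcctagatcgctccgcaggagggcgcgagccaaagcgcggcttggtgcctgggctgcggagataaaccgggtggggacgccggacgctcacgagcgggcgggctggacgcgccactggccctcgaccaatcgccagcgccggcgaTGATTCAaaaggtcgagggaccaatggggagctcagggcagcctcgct
Neither Lmna window held any of the 3 motifs. The AP-1 match of Lbr ended 41 bases before the start, and 6.75% of all 32851 windows held such a match. The TEAD motif was present in 1 window each of Emd and Syne1, against 12.6% of all windows, and the CArG box was in none of the 13, against 1.47% of all windows. A match is a description of these letters and was not tied to any measured value. The first Lmna window was 56.4% G or C and the Lbr window 69.6%, where the median of all windows was 52.4%.

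The levels of the 9 genes differed widely when set on a common scale, CPM per kilobase of exon, averaged over the 17 kept libraries. Lmnb1 stood far above the rest at 409 ± 16.1 (SD, n = 17) CPM per kb, higher than 99.8% of the genes tested. Lbr followed at 38.6 ± 1.83 and Lmnb2 at 30.8 ± 2.00 CPM per kb, and each of these 3 genes lay above the next in 17 of 17 libraries. Lmna came next at 21.3 ± 1.79 and then Emd at 20.5 ± 1.81 CPM per kb. Lmna exceeded Emd in 10 of 17 libraries, so these neighbours were not separated beyond their spread. On soft gels Lmna averaged 19.85 and Emd 20.48 CPM per kb, and on stiff gels 22.57 and 20.56.

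Among the LINC genes, Sun1 had the highest level, 13.9 ± 0.816 (SD, n = 17) CPM per kb, and lay above Sun2 in every kept library. Sun2 had a level of 3.85 ± 0.490 and Syne2 of 3.23 ± 0.315 CPM per kb, with Sun2 higher in 15 of 17 libraries. Syne1 was the lowest at 0.240 ± 0.0458 CPM per kb, above 2.17% of the genes tested. Its annotated exons cover 40491 bases over many isoforms, so a division by all of them understates a short isoform. Every member was divided by all its annotated exons, so the order of levels and the size of the lamin ratios below depend on these lengths.

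The design first asks which of these genes differed between soft and stiff gels. Lmna transcripts were lower on soft gels. Averaged over the 3 AHA concentrations, Lmna fell by 12.0%, a log2 fold change (soft minus stiff) of -0.18 ± 0.040 (SE) with a 95% confidence interval from -0.26 to -0.10. Its adjusted p was 0.000352 with edgeR's quasi-likelihood test and Benjamini-Hochberg adjustment over the 13438 genes tested. In this comparison 1 of the 9 genes, Lmna, had an adjusted p under 0.05, against 8.59% of all genes tested, so the share of members that changed was near that of all genes. The median log2 fold change of the 9 genes was 0.00496, and that of all genes tested was 0.00105.

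In the soft, low AHA group, the 3 libraries held 118, 109 and 118 CPM of Lmna. With mid AHA, soft libraries held 123, 115 and 114 CPM, and with high AHA the 2 kept libraries held 122 and 109 CPM. Lmna thus stayed between 109 and 123 CPM in the 8 kept soft libraries whatever the AHA concentration. On stiff gels with low AHA, Lmna stood at 136, 138 and 129 CPM. With mid AHA the stiff libraries had 132, 117 and 130 CPM, and with high AHA 145, 127 and 132 CPM. Of the 9 stiff libraries, 8 lay above every kept soft library, and the exception was mid AHA replicate 2 at 117 CPM. The soft, high AHA library with the high ERCC share had 102 CPM of Lmna, the lowest value of all 18 libraries. These values rest on 528 to 945 Lmna reads per kept library.

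**Figure D1:**
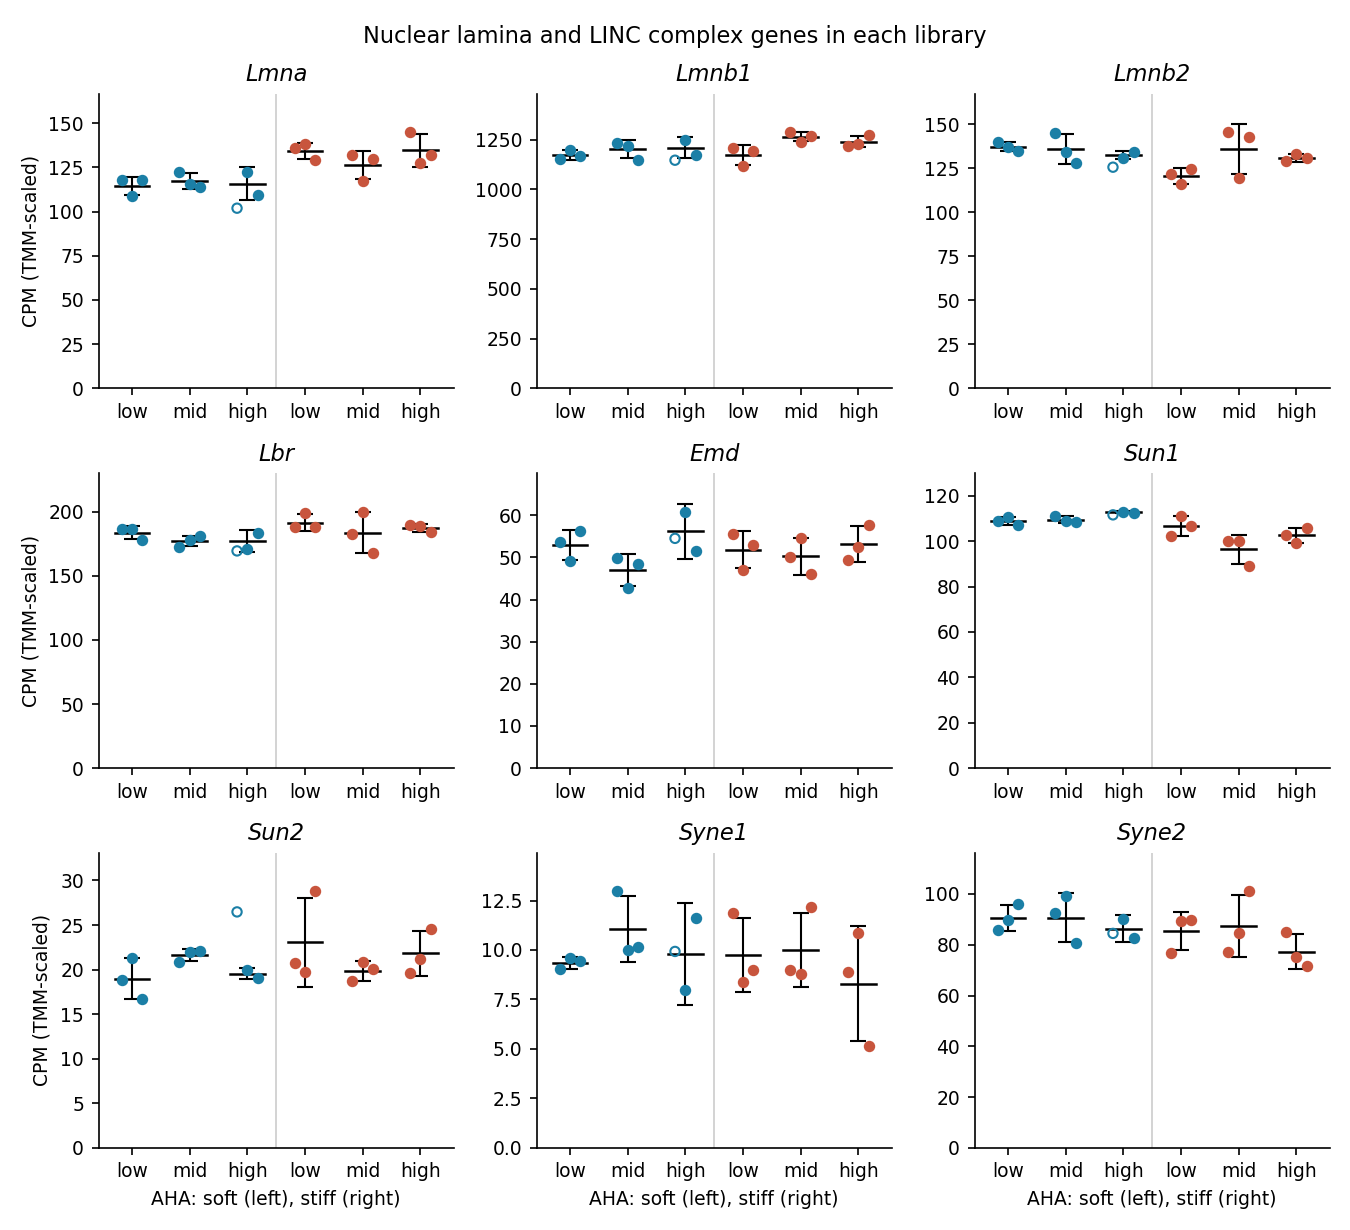
Expression of the 9 genes in each library, as CPM scaled with TMM on a linear axis from 0, for soft (blue) and stiff (red) gels with low, mid and high AHA. Points are libraries, horizontal lines are group means and bars are 1 SD over the kept libraries. The open circle is the soft, high AHA library left out. Lmna lies between 109 and 123 CPM in the kept soft libraries and above every one of them in 8 of 9 stiff libraries.

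The Lmna difference was also tested at each AHA concentration. Here and below, ranges said not to overlap only describe the libraries compared. How many of all genes tested were without overlap in the same way was not counted. With low AHA, the soft mean was 115 ± 5.12 (SD, n = 3) CPM and the stiff mean 135 ± 4.53 (SD, n = 3) CPM, the ranges did not overlap, and the log2 fold change was -0.23 ± 0.067 (SE) with an adjusted p of 0.0327 from edgeR. Lmna was the only one of the 9 genes called there, against 3.04% of all genes tested. The call was lost with DESeq2 (adjusted p = 0.0710) and with scaling to library totals alone (adjusted p = 0.0517). It was lost without soft, low AHA replicate 1 (adjusted p = 0.0666), replicate 2 (0.234) or replicate 3 (0.0603), and without stiff, low AHA replicate 1 (0.134) or replicate 2 (0.121). Over the 17 fits that each left out 1 library, the log2 fold change stayed between -0.25 and -0.19.

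With mid AHA, the Lmna means were 117 ± 4.66 (SD, n = 3) CPM on soft and 126 ± 7.92 (SD, n = 3) CPM on stiff gels, the ranges overlapped, and the log2 fold change of -0.10 had a 95% confidence interval from -0.23 to 0.029 (adjusted p = 0.542, edgeR). No member was called there by edgeR or by DESeq2, against 2.86% of all genes called. In edgeR, 2 of 9 members had an unadjusted p under 0.05, and so had 1827 of the 13438 genes tested. With high AHA, the 2 kept soft libraries averaged 116 ± 9.23 (SD) CPM and the 3 stiff libraries 135 ± 9.29 (SD) CPM without overlap. The log2 fold change was -0.22 with a 95% confidence interval from -0.37 to -0.075 and an adjusted p of 0.148 in edgeR. With both tools 0 of 9 members were called there, and 0.841% of all genes were called in edgeR. An unadjusted p under 0.05 in edgeR was found for 1 of 9 members and for 1405 of the 13438 genes tested. When all 18 libraries were used, the high AHA difference of Lmna became -0.28 with an adjusted p of 0.00523, and with the library of high ERCC share in place of replicate 2 it became -0.36 (adjusted p = 0.000758). Among fits that left out 1 library, the high AHA difference ranged from -0.32 without soft, high AHA replicate 2 to -0.15 without soft, high AHA replicate 3. Each of these fits kept 1 soft, high AHA library, so only its size is given. The mid AHA difference ranged from -0.15 without stiff, mid AHA replicate 2 to -0.068 without stiff, mid AHA replicate 1, none past the threshold in edgeR. The 3 soft minus stiff differences of Lmna were not shown to differ from each other (interaction, adjusted p = 0.939, edgeR).

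**Figure D2:**
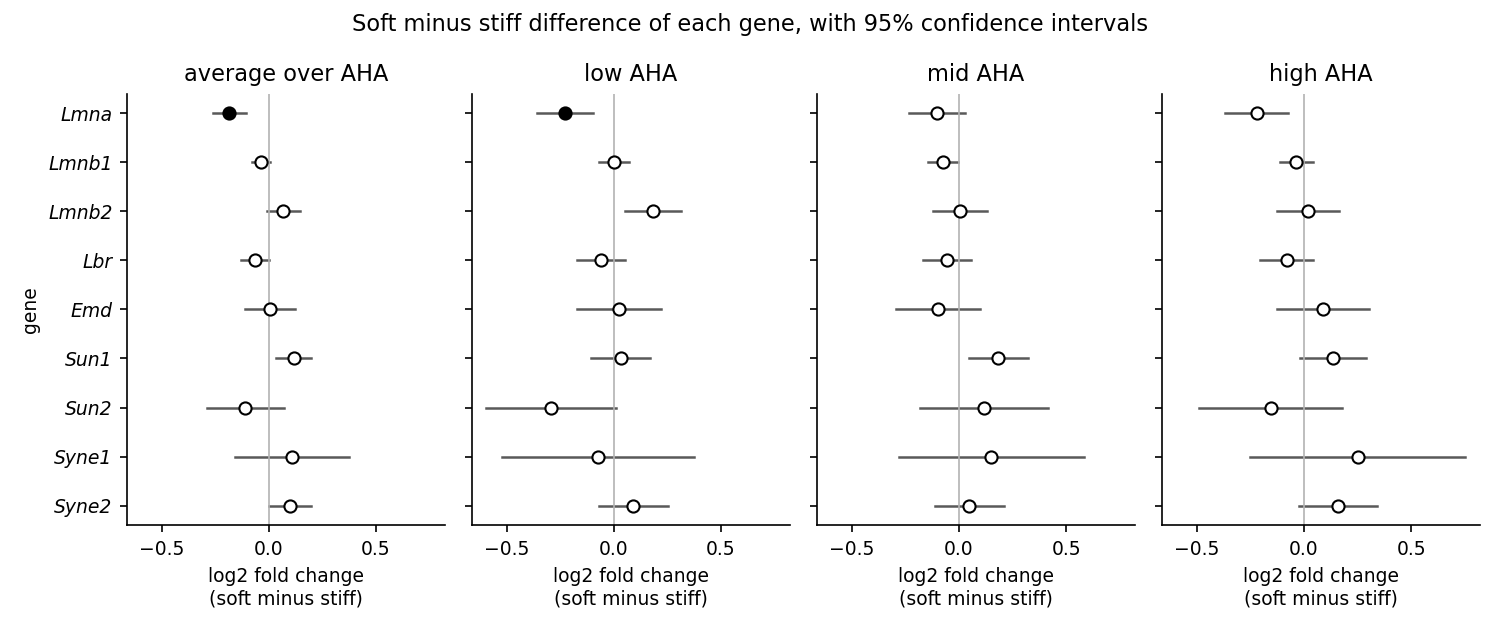
The log2 fold change (soft minus stiff) of each gene, averaged over AHA and at each AHA concentration. Lines are 95% confidence intervals from the edgeR fit over 17 libraries, and filled points have an adjusted p under 0.05. Lmna lies below 0 in all 4 panels and is filled in the average and at low AHA.

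Markers of other cell types were checked beside Lmna, since fibroblasts and differentiated cells hold more lamin A/C than mESCs. Of 8 fibroblast markers, 5 had enough reads to be tested and 1, Col1a1, was called in the average comparison, lower on soft gels by a log2 difference of -0.49 ± 0.085 (SE) at an adjusted p of 0.00282 in edgeR. The sum of all 8 ranged from 119 to 201 CPM in soft and from 169 to 244 CPM in stiff libraries. Without Col1a1, the sum ranged from 32.6 to 50.6 CPM in soft and from 28.7 to 50.0 CPM in stiff libraries. With low AHA, where Lmna was called, the fibroblast sums were lower on soft gels without overlap, at 119 to 141 against 194 to 217 CPM for all 8 genes and at 37.4 to 42.4 against 47.3 to 49.8 CPM without Col1a1. With mid AHA, the sum of all 8 was 121 to 149 CPM on soft and 169 to 244 CPM on stiff gels, and without Col1a1 the ranges overlapped, at 32.6 to 40.4 and 28.7 to 50.0 CPM. With high AHA, the sum of all 8 overlapped, at 189 to 201 CPM on soft and 174 to 206 CPM on stiff gels, and without Col1a1 the soft libraries lay above the stiff ones, at 48.4 to 50.6 against 40.5 to 46.5 CPM. Over the kept libraries, Col1a1 ranged from 80.6 to 196 CPM, Col1a2 from 13.3 to 30.02, Col3a1 from 6.74 to 13.1, Twist1 from 3.41 to 7.69 and Thy1 from 2.15 to 6.02 CPM. The other members were lower, with Twist2 from 0.197 to 1.74 CPM, Dcn at most 0.723 and Lum at most 0.450 CPM, and Lum was at 0 in every kept soft library. Of the 5 embryonic stem cell markers, Sox2, Nanog, Zfp42 and Esrrb were higher on soft gels, and the sum of the 5 ranged from 1466 to 1624 CPM in soft and from 1324 to 1424 CPM in stiff libraries without overlap. No tested marker of primitive endoderm, early mesoderm or early neural cells was called. The part of these markers in the Lmna difference was not tested.

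The B-type lamins did not pass the test between soft and stiff gels. Lmnb1 (chromosome 18, 56707813 to 56753424, plus strand) averaged 1193 ± 37.6 (SD, n = 8) CPM on soft and 1226 ± 52.1 (SD, n = 9) CPM on stiff gels. Its log2 fold change was -0.037, and the 95% confidence interval ran from -0.078 to 0.0053, or from -5.29% to 0.367% (adjusted p = 0.338, edgeR). It was -0.056 without soft, high AHA replicate 2, -0.022 without replicate 3 of that group, and -0.055 with the library of high ERCC share in place of replicate 2. At low, mid and high AHA the Lmnb1 difference was 0.00099, -0.074 and -0.036, with adjusted p-values of 0.997, 0.318 and 0.842 in edgeR. At mid AHA the soft libraries, from 1150 to 1236 CPM, all lay below the stiff ones, from 1241 to 1289 CPM. The lowest and the highest Lmnb1 group means were both on stiff gels, 1172 ± 49.8 (SD, n = 3) CPM with low AHA and 1266 ± 24.1 (SD, n = 3) CPM with mid AHA. Among the 9 genes it had the smallest spread within groups, an SD of 0.046 on the log2 scale.

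Lmnb2 (chromosome 10, 80901203 to 80918245, minus strand) averaged 136 ± 5.18 (SD, n = 8) CPM on soft and 129 ± 10.1 (SD, n = 9) CPM on stiff gels. The soft minus stiff difference was 0.068 on the log2 scale with a 95% confidence interval from -0.0088 to 0.15 (adjusted p = 0.328, edgeR), and was 0.042 without stiff, mid AHA replicate 2. With low AHA alone, the soft libraries held 135 to 140 CPM and the stiff libraries 116 to 124 CPM. These ranges did not overlap, but the log2 fold change of 0.18 ± 0.066 (SE) did not pass the adjustment (adjusted p = 0.131, edgeR). With mid and high AHA the Lmnb2 values overlapped, with log2 fold changes of 0.0038 and 0.019.

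The ratio of A-type to B-type lamin transcripts was taken within each library, as reads per kilobase of Lmna over those of Lmnb1 and Lmnb2 together, and is given as a description with no test. Its mean was 0.0457 ± 0.00182 (SD) over the 8 soft and 0.0509 ± 0.00438 (SD) over the 9 stiff libraries, so B-type transcripts were far in excess in every library. Of the stiff libraries, 8 of 9 lay above every kept soft library. By group, the mean ratio was 0.0459 with low, 0.0459 with mid and 0.0450 with high AHA on soft gels. On stiff gels it was 0.0544 with low, 0.0470 with mid and 0.0513 with high AHA. The soft groups were thus closely alike, and stiff gels with mid AHA came nearest to them.

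Taken against Lmnb2 alone, the Lmna ratio ranged from 0.584 to 0.684 in soft libraries and from 0.664 to 0.876 in stiff libraries. The mean was 0.628 ± 0.0315 (SD) over the 8 soft and 0.753 ± 0.0744 (SD) over the 9 stiff libraries, and the soft mean was 0.835 of the stiff mean. With low AHA the 3 soft libraries gave 0.618, 0.584 and 0.640, and the 3 stiff libraries 0.819, 0.876 and 0.764. In this pair of groups every soft value of Lmna lay below, and every soft value of Lmnb2 above, the stiff values. With mid AHA the mean ratio was 0.634 on soft and 0.683 on stiff gels, and with high AHA 0.641 and 0.755. Taken against Lmnb1 alone, the soft mean over all AHA concentrations was 0.902 of the stiff mean. The library with the high ERCC share had a Lmna to Lmnb2 ratio of 0.596, within the range of the soft libraries. Its ratio of Lmna to Lmnb1 plus Lmnb2 was 0.0419, below every kept soft library, of which the lowest had 0.0427.

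**Figure D3:**
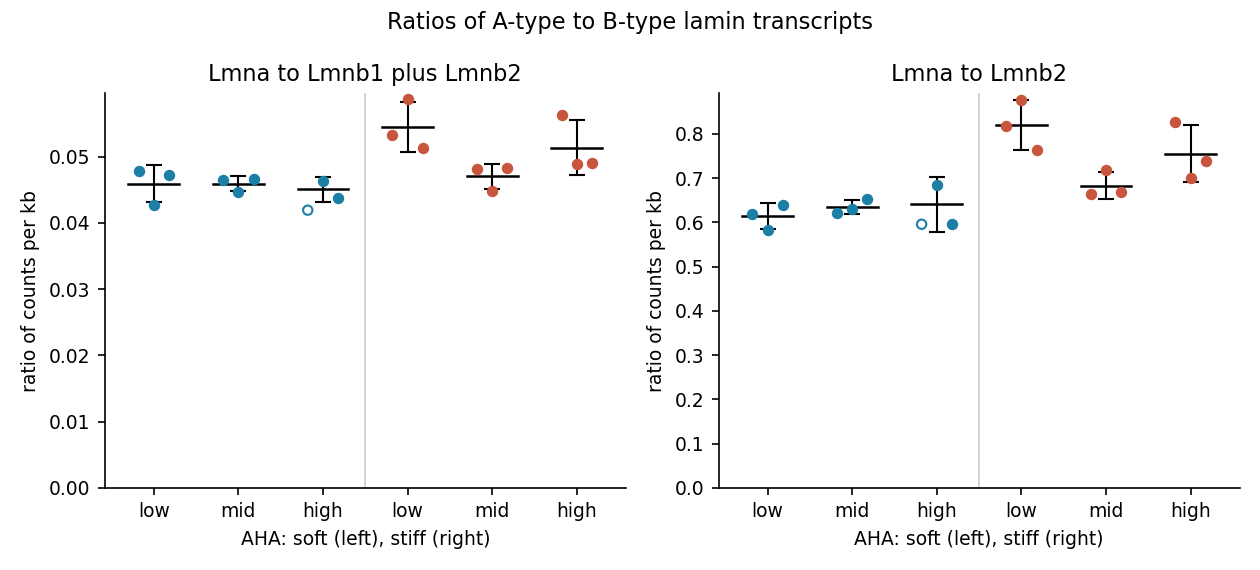
Ratios of Lmna to Lmnb1 plus Lmnb2 (left) and of Lmna to Lmnb2 (right) in each library, as counts per kilobase on linear axes from 0, for soft (blue) and stiff (red) gels with low, mid and high AHA. Points are libraries, lines are group means, bars are 1 SD over the kept libraries and the open circle is the library left out. On the right, kept soft libraries reach 0.684, and 7 of 9 stiff libraries lie above that value.

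Neither gene of the inner nuclear membrane proteins passed the test. Lbr (chromosome 1, 181815335 to 181843046, minus strand) had 180 ± 5.85 (SD, n = 8) CPM on soft and 188 ± 9.44 (SD, n = 9) CPM on stiff gels, with a log2 fold change of -0.065 and a 95% confidence interval from -0.13 to 0.0023 (adjusted p = 0.268, edgeR). It was -0.038 without stiff, mid AHA replicate 2. At low, mid and high AHA the log2 fold changes were -0.059, -0.054 and -0.081, and the soft libraries lay below the stiff ones without overlap at low and high AHA. Exons of Dnah14 on the opposite strand overlap 9.24% of the Lbr exon bases, and whether counting used strand is not given in the sources used here, so Lbr counts may hold reads of that gene. Lmnb2 and Lbr had the most opposed levels of the 36 pairs of members over the 17 kept libraries (Pearson r = -0.70 of log2 CPM, a description over libraries that share groups).

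Emd (chromosome X, 74254687 to 74261548, plus strand) had 51.6 ± 5.46 (SD, n = 8) CPM on soft and 51.7 ± 3.91 (SD, n = 9) CPM on stiff gels. The average difference of 0.00496 on the log2 scale had a 95% confidence interval from -0.11 to 0.12, and its sign changed in 7 of the 17 fits that left out 1 library, from -0.042 without soft, high AHA replicate 2 to 0.041 without replicate 3 of that group. With all 18 libraries it was 0.00044. The sign also differed by AHA, with 0.024 at low, -0.098 at mid and 0.089 at high AHA and no adjusted p below 0.751 in edgeR. A gene on the same strand, Gm14686, overlaps 13.6% of the Emd exon bases, so its reads could be split or lost. On soft gels the Emd group means were 53.0, 47.0 and 56.2 CPM with low, mid and high AHA, and the high minus mid difference of 0.26 ± 0.11 (SE) on the log2 scale did not pass the adjustment (adjusted p = 0.582, edgeR).

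Neither SUN gene passed the test, although Sun1 came near the threshold. Sun1 (chromosome 5, 139200637 to 139249840, plus strand) averaged 110 ± 2.07 (SD, n = 8) CPM on soft and 102 ± 6.15 (SD, n = 9) CPM on stiff gels. The soft libraries lay within a narrow range, at 109, 111 and 107 CPM with low, 111, 109 and 108 CPM with mid, and 113 and 112 CPM with high AHA. The stiff libraries held 103, 111 and 107 CPM with low AHA, 100.2, 100.2 and 89.1 CPM with mid AHA, and 103, 99.2 and 106 CPM with high AHA. Of the 9 stiff libraries, 8 were below every kept soft library, and the exception was low AHA replicate 2 at 111 CPM.

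The Sun1 log2 fold change was 0.12 ± 0.042 (SE) with a 95% confidence interval from 0.034 to 0.20. Its unadjusted p was 0.00607 and its adjusted p 0.0632 in edgeR, just outside the threshold of 0.05. It passed with all 18 libraries (adjusted p = 0.0495), with scaling to library totals alone (0.0346), without stiff, mid AHA replicate 1 (0.0480) and without stiff, mid AHA replicate 2 (0.0461). The difference was 0.031 with low, 0.18 with mid and 0.13 with high AHA, with adjusted p-values of 0.923, 0.163 and 0.567 in edgeR. At mid and high AHA the soft libraries lay above the stiff ones without overlap, although neither difference passed the adjustment. The share of all genes without such overlap was not counted.

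Sun2 (chromosome 15, 79724070 to 79742536, minus strand) averaged 20.1 ± 1.84 (SD, n = 8) CPM on soft and 21.6 ± 3.16 (SD, n = 9) CPM on stiff gels, on 80 to 160 reads per kept library. Its log2 fold change was -0.11 with a 95% confidence interval from -0.29 to 0.070 (adjusted p = 0.551, edgeR). By AHA it was -0.29 at low, 0.12 at mid and -0.16 at high AHA, with adjusted p-values of 0.402, 0.815 and 0.842, and these differences were not shown to be unequal (interaction, adjusted p = 0.864, edgeR). The widest spread was on stiff gels with low AHA, where replicate 3 reached 28.8 CPM and the lowest stood at 19.7 CPM. Without that replicate the log2 fold change was -0.041, the nearest to 0 of the 17 fits that left out 1 library, and the farthest was -0.14. The soft, high AHA library with the high ERCC share held 26.5 CPM, above every kept soft library, which reached 22.1 CPM. The Sun2 difference was -0.055 with all 18 libraries, and -0.033 or -0.030 with that library in place of soft, high AHA replicate 2 or 3.

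Neither nesprin gene passed the test. Syne2 (chromosome 12, 75818134 to 76110926, plus strand), which encodes nesprin-2, averaged 89.6 ± 6.39 (SD, n = 8) CPM on soft and 83.3 ± 9.24 (SD, n = 9) CPM on stiff gels. Its log2 fold change of 0.10 had a 95% confidence interval from 0.0027 to 0.20 and an adjusted p of 0.227 in edgeR. It was 0.091, 0.049 and 0.16 at low, mid and high AHA, with no adjusted p below 0.571. Its lowest group mean, 77.2 ± 6.88 (SD, n = 3) CPM, was on stiff gels with high AHA, and its highest, 90.7 ± 9.47 (SD, n = 3) CPM on soft gels with mid AHA, was next to 90.5 ± 5.14 (SD, n = 3) CPM with low AHA.

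Syne1 (chromosome 10, 5020917 to 5551482, minus strand), which encodes nesprin-1, had 29 to 82 reads in a kept library. It averaged 10.1 ± 1.55 (SD, n = 8) CPM on soft and 9.34 ± 2.12 (SD, n = 9) CPM on stiff gels, with a log2 fold change of 0.11 and a 95% confidence interval from -0.16 to 0.38 (adjusted p = 0.725, edgeR). The value depended on single libraries. It was 0.016 without soft, high AHA replicate 3, 0.021 without stiff, high AHA replicate 3 and 0.068 without soft, mid AHA replicate 1, but 0.19 without soft, high AHA replicate 2, 0.18 without stiff, high AHA replicate 2 and 0.17 without stiff, low AHA replicate 1. With the library of high ERCC share in place of soft, high AHA replicate 3 it was 0.069. By AHA the Syne1 difference was -0.073 at low, 0.15 at mid and 0.25 at high AHA, with no adjusted p below 0.820 in edgeR. At this depth, differences of the size seen for Lmna were not detectable for Syne1, whose SD within groups was 0.31 on the log2 scale against 0.079 for Lmna and 0.17 for the median gene.

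The design also asks whether tethering strength changed these genes at a fixed stiffness. No AHA comparison called any of the 9 genes, by edgeR or by DESeq2. On soft gels, all genes were called at 0.253% for high minus low AHA, 0.067% for high minus mid and 0% for mid minus low. In that order, 1144, 915 and 820 of the 13438 genes had an unadjusted p under 0.05 in edgeR. On stiff gels all genes were called at 0.00744% for high minus low, 0.00744% for high minus mid and 0% for mid minus low. There 812, 783 and 671 genes had an unadjusted p under 0.05 in edgeR. In the same order, the members with an unadjusted p under 0.05 in edgeR numbered 0, 1 and 0 on soft and 1, 1 and 3 on stiff gels. In the interaction of stiffness and AHA, 0 of 9 members were called by either tool, against 0.0298% of all genes. An unadjusted p under 0.05 in edgeR was found for 0 members and for 902 of all genes tested.

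For Lmna, high minus low AHA gave a log2 fold change of 0.015 with a 95% confidence interval from -0.13 to 0.16 on soft gels, and of 0.0088 with an interval from -0.12 to 0.14 on stiff gels. Differences inside these intervals are not excluded at this depth and number of libraries. The 3 members with an unadjusted p under 0.05 in the stiff, mid minus low AHA comparison were Lmnb1 at 0.11 ± 0.035 (SE), Lmnb2 at 0.16 ± 0.066 and Sun1 at -0.14 ± 0.071 on the log2 scale. Their adjusted p-values were 0.888, 0.888 and 0.980 in edgeR. Across the 6 AHA comparisons, the widest interval was that of Syne1.

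**Figure D4:**
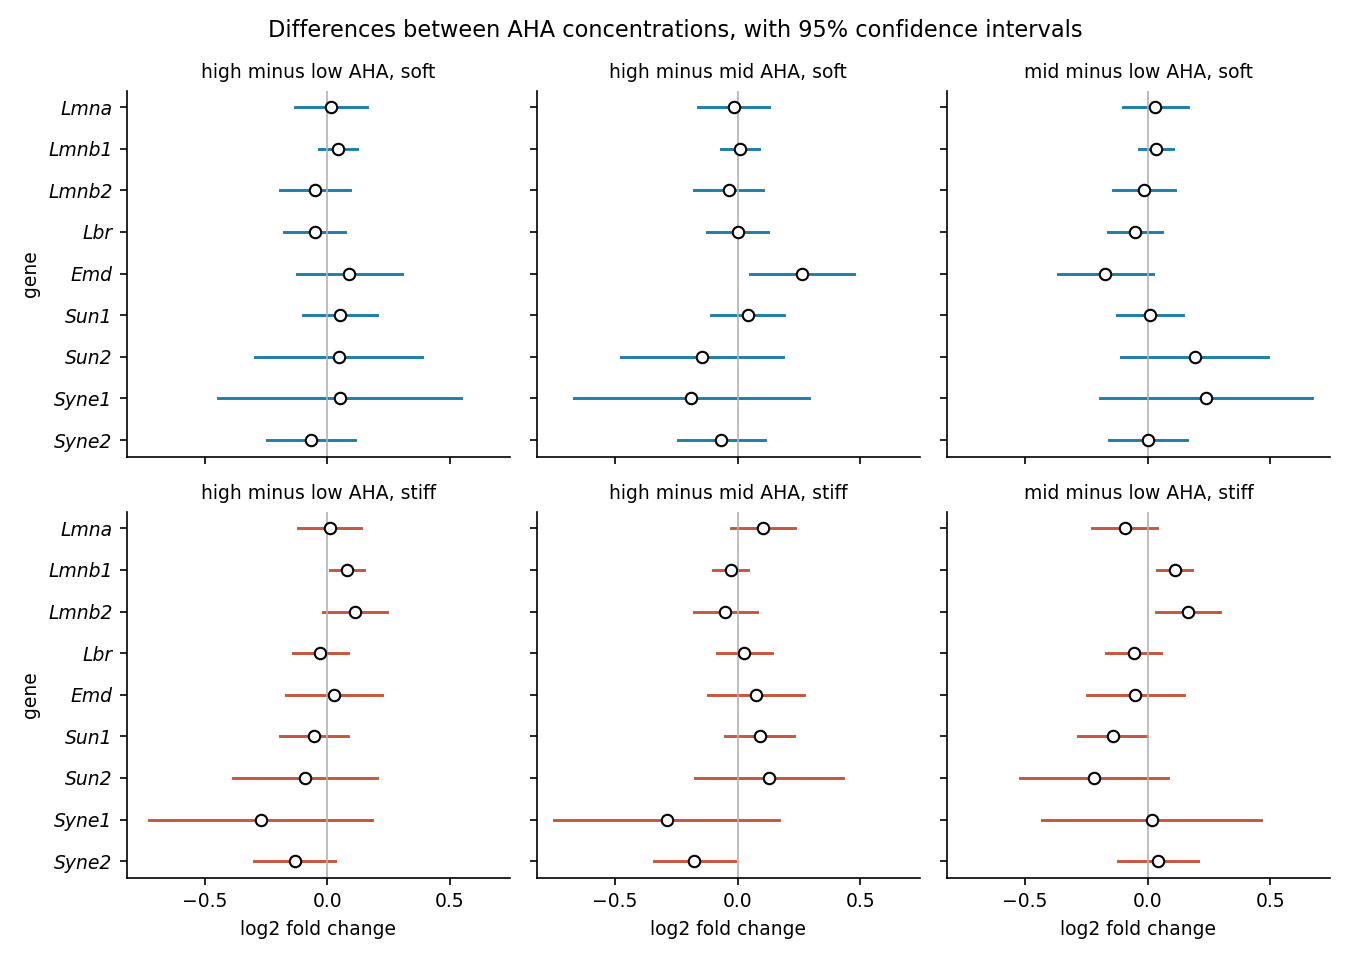
The log2 fold change of each gene between AHA concentrations, on soft gels (upper row, blue) and stiff gels (lower row, red). Lines are 95% confidence intervals from the edgeR fit over 17 libraries, and a filled point would have an adjusted p under 0.05. No point is filled, and the Syne1 intervals are the widest in each panel.

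The genes whose levels followed Lmna most closely over the 17 kept libraries were Map7d1 (Pearson r = 0.90 of log2 CPM), Slc35a4 (r = 0.89) and Rcn2 (r = 0.85), ranked among 13437 other genes. These values describe libraries that share groups and are given with no p. After subtraction of group means, r was 0.80, 0.90 and 0.74. Map7d1, a microtubule-associated protein gene, averaged 184 ± 8.22 (SD, n = 8) CPM on soft and 211 ± 11.0 (SD, n = 9) CPM on stiff gels, with a log2 fold change of -0.20 (adjusted p = 2.165e-06, edgeR). Rcn2, a calcium-binding protein gene of the secretory pathway, had a log2 fold change of -0.22 (adjusted p = 0.00565, edgeR), and Slc35a4 of -0.13 (adjusted p = 0.198, edgeR).

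Other genes of the nuclear envelope were taken from a list of 55, of which 53 were tested. Sun3 and Sun5 had too few reads. In the average soft minus stiff comparison, 4 of the 53 (7.55%) were called, 2 higher and 2 lower on soft gels, near the 8.59% of all genes tested. The median log2 fold change of the 53 was 0.00134, against 0.00105 for all genes. None of 15 nuclear pore genes, 5 lamin maturation genes or 5 further SUN and KASH genes was called.

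Plec, which encodes plectin, a cytoskeletal linker that joins intermediate filaments to nesprin-3 and to adhesions, had the lowest adjusted p of the 4. It averaged 1021 ± 54.7 (SD, n = 8) CPM on soft and 1199 ± 63.7 (SD, n = 9) CPM on stiff gels, and the log2 fold change was -0.23 ± 0.023 (SE) with an adjusted p of 1.967e-13 in edgeR. It was also called at low AHA with -0.28 and at mid AHA with -0.29, but not at high AHA, where the value was -0.12 (adjusted p = 0.192, edgeR). These differences were not shown to be unequal (interaction, adjusted p = 0.576, edgeR). Kept soft libraries ranged from 947 to 1098 CPM and stiff libraries from 1070 to 1261 CPM.

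Tor3a, which encodes a torsin-family ATPase, was lower on soft gels, at 35.1 ± 2.90 (SD, n = 8) CPM against 40.3 ± 4.71 (SD, n = 9) CPM, and its log2 difference was -0.21 ± 0.070 (SE) at an adjusted p of 0.0360 in edgeR. The call was lost with DESeq2 (adjusted p = 0.0895), with all 18 libraries (0.0506) and in 8 of the 17 single-library omissions. These were the fits without soft, low AHA replicate 3 (adjusted p = 0.0709), soft, mid AHA replicates 2 (0.0653) and 3 (0.0886), soft, high AHA replicate 3 (0.118), stiff, low AHA replicate 1 (0.161), stiff, mid AHA replicates 2 (0.131) and 3 (0.0578), and stiff, high AHA replicate 3 (0.0600).

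Ankle2, which encodes a LEM-domain protein that acts on the chromatin-bridging factor BAF when the envelope re-forms after mitosis, was higher on soft gels. Its 8 kept soft libraries, from 111 to 119 CPM, lay above all 9 stiff libraries, from 90.3 to 108 CPM. The difference was 0.18 ± 0.042 (SE) on the log2 scale, with an adjusted p of 0.000784 in edgeR. Ankle2 was also called at mid AHA, with 0.24 (adjusted p = 0.0387), but not at low AHA with 0.15 (0.324) or at high AHA with 0.16 (0.415), and these differences were not shown to be unequal (interaction, adjusted p = 0.979, edgeR). Nemp1, which encodes an inner nuclear membrane protein, averaged 32.0 ± 2.71 (SD, n = 8) CPM on soft and 27.0 ± 3.25 (SD, n = 9) CPM on stiff gels, a log2 difference of 0.25 ± 0.077 (SE) at an adjusted p of 0.0225 in edgeR. Neither Tor3a nor Nemp1 was called at any single AHA concentration. The Nemp1 call was lost without soft, low AHA replicate 1 (adjusted p = 0.0687), soft, mid AHA replicate 1 (0.0562), soft, high AHA replicate 2 (0.142), stiff, low AHA replicate 1 (0.0538) or stiff, high AHA replicate 3 (0.0765).

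**Figure D5:**
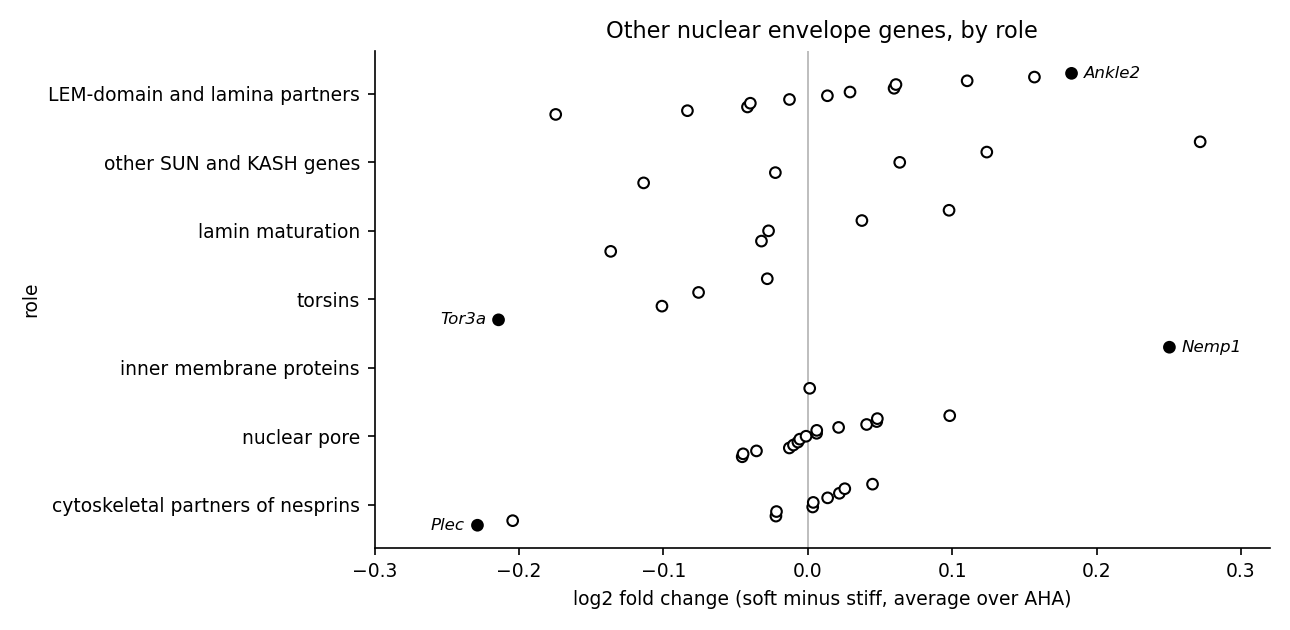
The log2 fold change (soft minus stiff, average over AHA) of the 53 tested genes of the nuclear envelope list, grouped by role. Each point is a gene, and filled points with names have an adjusted p under 0.05 in the edgeR fit over 17 libraries. Ankle2 and Nemp1 lie above 0, Tor3a and Plec below 0, and the 15 nuclear pore genes lie between -0.045 and 0.098.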

How the data were processed

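RNA was sequenced from E14 mouse embryonic stem cells in 18 libraries, 3 in each of 6 groups taken from the labels. The authors trimmed reads with Trim Galore 0.4.4, aligned them with GSNAP to GRCm38/mm10 and counted them per Ensembl gene with HTSeq, and the deposited values are raw read counts. Whether HTSeq used strand is not given in the sources used here. The 5 HTSeq summary rows, 61.5% to 64.0% of a column's sum, and the 92 ERCC rows entered neither library sizes nor tests.

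Symbols and coordinates came from GENCODE M21, which named 45143 of 46078 genes, and promoter windows from RefSeq (GRCm38.p6). Libraries with an ERCC share above 1.5 times the median were left out, which removed 1. Between pairs of libraries of a group, the chi-square per degree of freedom was 1.81 to 2.99, and all were treated as distinct samples. This value does not show whether libraries came from separate cultures.

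In edgeR 4.0.16 (R 4.3.3), filterByExpr with a minimum count of 10 chose the protein-coding genes to test, TMM set the scaling, and a robust quasi-likelihood model had 1 coefficient per group. Each contrast was adjusted by Benjamini-Hochberg, and called means an adjusted p under 0.05. The biological coefficient of variation was 5.35%. CPM are TMM-scaled. Each SE and interval comes from this fit. The code was tested on simulated data.

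The genes named are the 9 members, the 3 genes most correlated with each called member (log2 CPM, prior count 2), and every gene of a nuclear envelope list called in the average comparison. Members and lists were chosen with earlier results of these data known. Alternatives were DESeq2 1.42.0, its size factors, library totals, a filter of at least 2 counts, all Ensembl genes, all 18 libraries, only the groups compared, and each library left out in turn. Keeping the library of high ERCC share in place of another of its group was added after seeing the data.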

Additional observations from a re-analysis of the deposited data

How the results depend on the processing

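The average Lmna difference stayed below 0 and past the threshold under all 8 alternatives and in all 17 fits that left out 1 library, where it ranged from -0.22 to -0.16 (adjusted p from 0.000123 to 0.00804, edgeR). The count of members called in that average rose from 1 to 2, by Sun1, with library totals only and with all 18 libraries, and was 1 to 2 when 1 library was left out. At low AHA the count fell from 1 to 0 with library totals only and with DESeq2, and was 0 to 1 when 1 library was left out. At high AHA it rose from 0 to 1, by Lmna, with all 18 libraries and when the library of high ERCC share was kept in place of soft, high AHA replicate 2 or of replicate 3. The number of all genes called at high AHA rose from 113 to 341, 384 and 257 under these same settings. It was 51 to 117 when 1 library outside the soft, high AHA group was left out. Over all single-library omissions, the counts of all genes called at low and mid AHA were 245 to 423 and 222 to 424, against 408 and 384. The nuclear envelope list had 2 genes called in place of 4, Plec and Ankle2, when the library of high ERCC share replaced soft, high AHA replicate 2, and 2 to 5 when 1 library was left out, with 2 without stiff, low AHA replicate 1. The Emd difference turned to -0.023 with that first replacement and ranged from -0.042 to 0.041 when 1 library was left out, never past the threshold. The cause of these changes was not tested. No member was called in an AHA comparison or in the interaction under any alternative. No paired analysis was possible because the labels give no replicate numbers shared between groups. Limits include the low counts of Syne1 and Sun2, depth, the 2 kept soft, high AHA libraries and the absence of a stated strand setting. Their relative weight was not tested. Gene counts do not separate lamin A from lamin C, or nesprin isoforms.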
